A study of Saccharomyces cerevisiae with 16 samples.

Results

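The nuclear genes that encode the respiratory chain and the ATP synthase of budding yeast were examined in 16 libraries of ribosome footprints and total mRNA. The genes were listed by name, as subunits of cytochrome c oxidase, cytochrome bc1, cytochrome c, succinate dehydrogenase and ATP synthase, and the rule used no measured value, although earlier results of these data were known when the list was drawn up. Of 35 listed genes, 34 were found among the 5647 genes of the count tables, and all 34 had enough mRNA reads to be tested in both backgrounds. ATP14, and the subunits encoded by mitochondrial DNA, were not analysed here. Cytochrome c oxidase was represented by COX4 (YGL187C), COX5A (YNL052W), COX5B (YIL111W), COX6 (YHR051W), COX7 (YMR256C), COX8 (YLR395C), COX9 (YDL067C), COX12 (YLR038C) and COX13 (YGL191W). Cytochrome bc1 was represented by COR1 (YBL045C), QCR2 (YPR191W), QCR6 (YFR033C), QCR7 (YDR529C), QCR8 (YJL166W), QCR9 (YGR183C), QCR10 (YHR001W-A), CYT1 (YOR065W) and RIP1 (YEL024W). Cytochrome c is encoded by CYC1 (YJR048W) and CYC7 (YEL039C). Succinate dehydrogenase was represented by SDH1 (YKL148C), SDH2 (YLL041C), SDH3 (YKL141W) and SDH4 (YDR178W). The F1 head of ATP synthase was represented by ATP1 (YBL099W), ATP2 (YJR121W), ATP3 (YBR039W), ATP15 (YPL271W) and ATP16 (YDL004W). The membrane sector and stator of ATP synthase (Fo with its stalks) were represented by ATP4 (YPL078C), ATP5 (YDR298C), ATP7 (YKL016C), ATP17 (YDR377W) and ATP20 (YPR020W).

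The study asked how loss of eIF3, the largest translation initiation factor, changes the translation of individual mRNAs. *eIF3a/b Degron* cells (strain YAJ34) carry the temperature-sensitive degron alleles tif32td (eIF3a) and prt1td (eIF3b) behind the copper-dependent promoter PCUP1, and the isogenic WT (YAJ3, with the plasmid pRS316) carries neither. Both are MATa strains with leu2, ura3 and trp1 markers, carry gcn2 disrupted with hisG and express myc-UBR1 from PGAL1. They were grown at 25 °C in raffinose medium with Cu2+ and moved for 90 min to 36 °C in raffinose and galactose medium with the copper chelator BCS. *eIF3i DDKK* cells (H450, tif34 deleted, with hc TIF34 URA3 and ura3-52::GCN2 in the labelled genotype, and likewise MATa with leu2 and trp1 markers) were transformed with an HA-tagged TIF34 plasmid bearing D207K and D224K, and the isogenic WT with the same plasmid without these changes. Both were grown in SC medium at 30 °C and moved for 30 min to 37 °C. There were 2 cultures per strain, each with a footprint and an mRNA library, and each strain is a single genotype whose number of independent clones was not given in the sources used here.

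In yeast the respiratory chain passes electrons along the inner mitochondrial membrane. Succinate dehydrogenase and other dehydrogenases feed ubiquinone, cytochrome bc1 moves the electrons to cytochrome c, and cytochrome c oxidase gives them to oxygen. The resulting proton gradient drives the F1Fo ATP synthase, whose F1 head makes ATP on a rotor that turns within the membrane sector Fo. Most subunits of these complexes are encoded in the nucleus and made by cytosolic ribosomes. Their transcription is known to be repressed by glucose and activated by the CCAAT-binding complex Hap2/3/4/5, in which Hap4 is the activating subunit, while the RNA-binding protein Puf3 is known to bind many mRNAs of mitochondrial proteins downstream of the stop codon.

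The words that these factors are known for were looked for beside the 34 genes in the R64 genome of RefSeq, and the sequences are shown to place them. CCAAT occurred on either strand within 500 bases upstream of the start codon in 31 of 34 genes (91.2%), against 62.6% of 5416 other genes. The word is short and common, so the longer ACCAATNA, which contains it, was searched in the same windows after CCAAT had been counted. It occurred on either strand upstream of 14 of 34 genes (41.2%), against 8.6% of the other genes. The 14 genes were 5 of 9 for cytochrome c oxidase, 3 of 9 for cytochrome bc1, 1 of 4 for succinate dehydrogenase, 5 of 10 for ATP synthase and neither cytochrome c gene. Sites of 7 genes follow along the coding strand of each gene, with the match in capitals and the flanks in lower case.
COX6, chrVIII:209480-209503, gene on the plus strand, match on the opposite strand: aagggaccTAATTGGTccggtcaa
COX13, chrVII:144587-144610, gene on the plus strand: tttttcccACCAATGAgaggcggt
QCR7, chrIV:1496715-1496738, gene on the minus strand: ttgttttgACCAATCAggagcgac
RIP1, chrV:107004-107027, gene on the plus strand: cataacggACCAATCAgcgttttg
SDH1, chrXI:171432-171455, gene on the minus strand: gggggtggACCAATCAcagcgcag
ATP3, chrII:315371-315394, gene on the plus strand: gatggagaACCAATGAgcggcgag
ATP4, chrXVI:408919-408942, gene on the minus strand: aatattgaACCAATCAcgacgctt

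These matches lay 209 (COX6), 205 (COX13), 174 (QCR7), 240 (RIP1), 310 (SDH1), 188 (ATP3) and 182 (ATP4) bases before the start codon. They are matches of letters and were not tested for binding. The Puf3 word TGTANATA occurred on the coding strand within 200 bases downstream of the stop codon in 3 of 34 genes (8.8%), COX8, SDH1 and ATP1, against 15.1% of the other genes. The SDH1 match is shown as an example, and a link between this word and the mRNA changes was not tested.
SDH1, chrXI:169093-169116, gene on the minus strand: cactaattTGTATATAtacctatt

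Library totals ran between 4389212 and 29982592 reads on genes, and YDR445C alone took 8.79% to 29.9% of the reads of the 8 mRNA libraries. The altered subunits were read first. In *eIF3a/b Degron* cells the footprints of TIF32 (eIF3a) and PRT1 (eIF3b) fell by 1.65 and 1.64 on the log2 scale against WT, with mRNA changes of 0.40 and 0.20. In *eIF3i DDKK* cells TIF34 (eIF3i) was read from a plasmid in both strains, so its counts do not check the label. No spike-in was used, so a change says how a gene moved relative to the rest of the mRNA pool. Changes were tested with edgeR's quasi-likelihood test, with p-values adjusted over all genes tested (Benjamini-Hochberg), and a gene was called when its adjusted p was under 0.05.

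The share of all counted reads that fell on the 34 genes went in opposite directions in the mutants. In mRNA libraries it was 0.506% and 0.517% in *eIF3a/b Degron* cells, against 1.26% and 1.21% in WT. In footprint libraries it was 1.22% and 1.31% in *eIF3a/b Degron* cells, against 2.36% and 2.18% in WT. The mRNA share was 0.462% and 0.430% in *eIF3i DDKK* cells, against 0.301% and 0.355% in WT, and the footprint share was 0.950% and 1.05%, against 0.580% and 0.576%. YDR445C lowered the mRNA shares unevenly. With its reads left out they were 0.586% and 0.582% in *eIF3i DDKK* cells, against 0.429% and 0.429% in WT. In *eIF3a/b Degron* cells they were then 0.571% and 0.590%, against 1.39% and 1.33% in WT. The cultures of mutant and WT did not overlap in any of these comparisons. The footprint share was above the mRNA share in each of the 8 cultures.

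**Figure D1:**
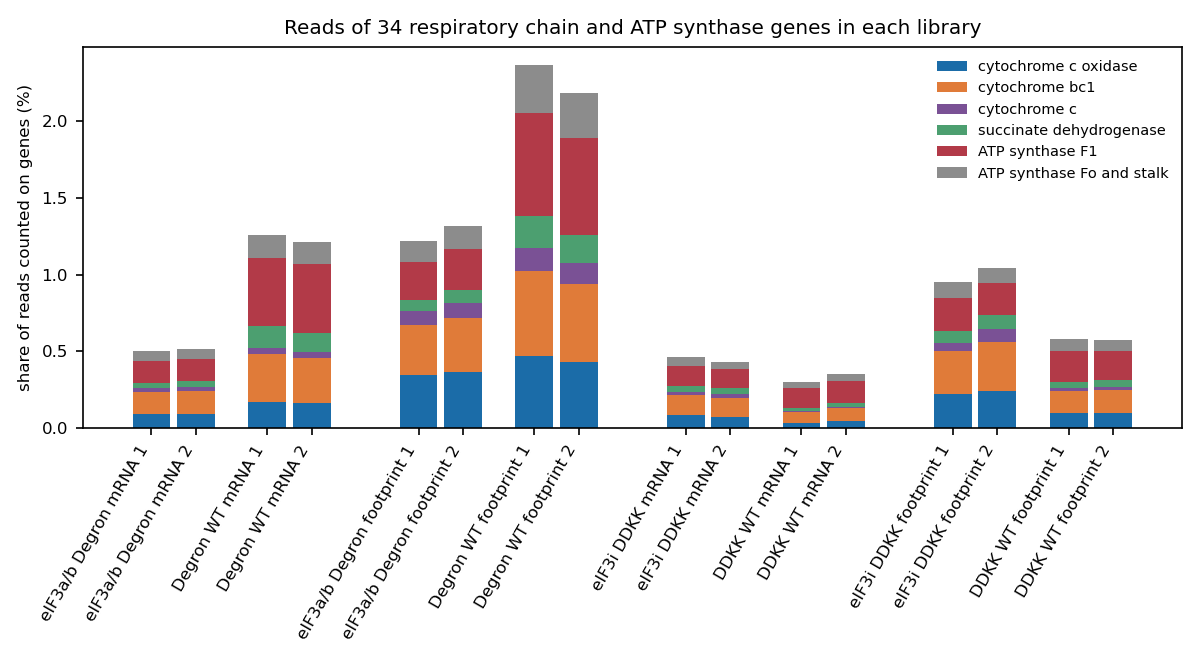
Bars give the share (%) of reads counted on genes (YDR445C included) that fell on the 34 genes in each of 16 libraries, split by complex. Shares were lower in *eIF3a/b Degron* cells than in their WT (mRNA 0.506% and 0.517%, against 1.26% and 1.21%) and higher in *eIF3i DDKK* cells than in theirs (mRNA 0.462% and 0.430%, against 0.301% and 0.355%).

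In *eIF3a/b Degron* cells the mRNA of these complexes fell almost as a whole. Of 34 genes, 33 had lower mRNA than WT and none had higher mRNA (none at an unadjusted p under 0.05, none by DESeq2), where 30.8% of the 5306 genes tested were called lower and 44.3% higher. The median log2 change was -1.11 over the 34 genes, against 0.12 over all genes tested. Succinate dehydrogenase, the enzyme shared with the citric acid cycle, had the lowest median of the complexes (-1.68, 4 of 4 lower). It was followed by the F1 head (-1.47, 5 of 5), Fo with its stalks (-1.22, 5 of 5), cytochrome bc1 (-1.07, 9 of 9), cytochrome c oxidase (-0.85, 8 of 9) and cytochrome c (-0.66, 2 of 2). The complexes were not tested against each other.

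SDH1 (YKL148C, chrXI:169207-171129), the flavoprotein subunit that oxidises succinate, had the deepest fall. Its mRNA level, in reads per kilobase of counted region relative to the TMM-scaled library total (scaled RPKM), was 34.9 and 34.4 in *eIF3a/b Degron* cells, against 213 and 201 in WT. The log2 change was -2.58 ± 0.08 (SE, n = 2 cultures each, edgeR adjusted p = 9.7e-19), a level 5.96-fold lower. SDH4, a membrane anchor, fell by 1.77 ± 0.09 (108 and 99.1 scaled RPKM, against 375 and 332 in WT). SDH2, the iron-sulfur subunit, fell by 1.60 ± 0.09 (131 and 148, against 443 and 399). SDH3, the other anchor, fell least of the 4, by 1.16 ± 0.08 (173 and 160.5, against 386 and 362). In each of these genes both *eIF3a/b Degron* cultures lay far below both WT cultures.

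All 5 genes of the F1 head of ATP synthase fell. ATP1 and ATP2, the alpha and beta subunits that form the catalytic sites, had 259 and 264 scaled RPKM (ATP1) and 356 and 369.6 (ATP2) in *eIF3a/b Degron* cells, against 766 and 787 (ATP1) and 1079 and 1108 (ATP2) in WT. Their log2 changes were -1.57 ± 0.07 and -1.59 ± 0.07 (edgeR adjusted p = 1.07e-15 and 1.11e-15). ATP3, the gamma subunit of the central stalk, and ATP15, the epsilon subunit, changed by -1.47 each, and ATP16, the delta subunit, by -1.07. Of the stator and membrane genes, ATP5 (OSCP) had the largest change, -1.26 ± 0.07 (189.7 and 194, against 463 and 454). ATP20, a subunit linked to dimer formation, had the smallest at -0.40 ± 0.08 (309 and 271, against 394 and 371, adjusted p = 0.000202).

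In cytochrome bc1 the largest mRNA change was that of QCR10 (YHR001W-A), a small peripheral subunit, at -1.41 ± 0.09 (114 and 131 scaled RPKM, against 335 and 319 in WT, adjusted p = 3.28e-12). COR1, a core subunit, followed at -1.34, and CYT1, cytochrome c1 itself, had the smallest change at -0.56. In cytochrome c oxidase COX9, a small membrane subunit, had the largest change, -1.18 ± 0.12 (145 and 183, against 373 and 368, adjusted p = 8.24e-09). COX6, whose protein lies on the matrix side, changed by -0.49. COX5B, the isoform of subunit V used at low oxygen, was the gene that was not called. It had 8.43 and 9.43 scaled RPKM in *eIF3a/b Degron* cells, against 6.73 and 11.7 in WT, with overlapping groups and a log2 change of -0.07 ± 0.29 (adjusted p = 0.828). Only 31 and 33 reads, against 37 and 78 in WT, lay behind these values.

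**Figure D2:**
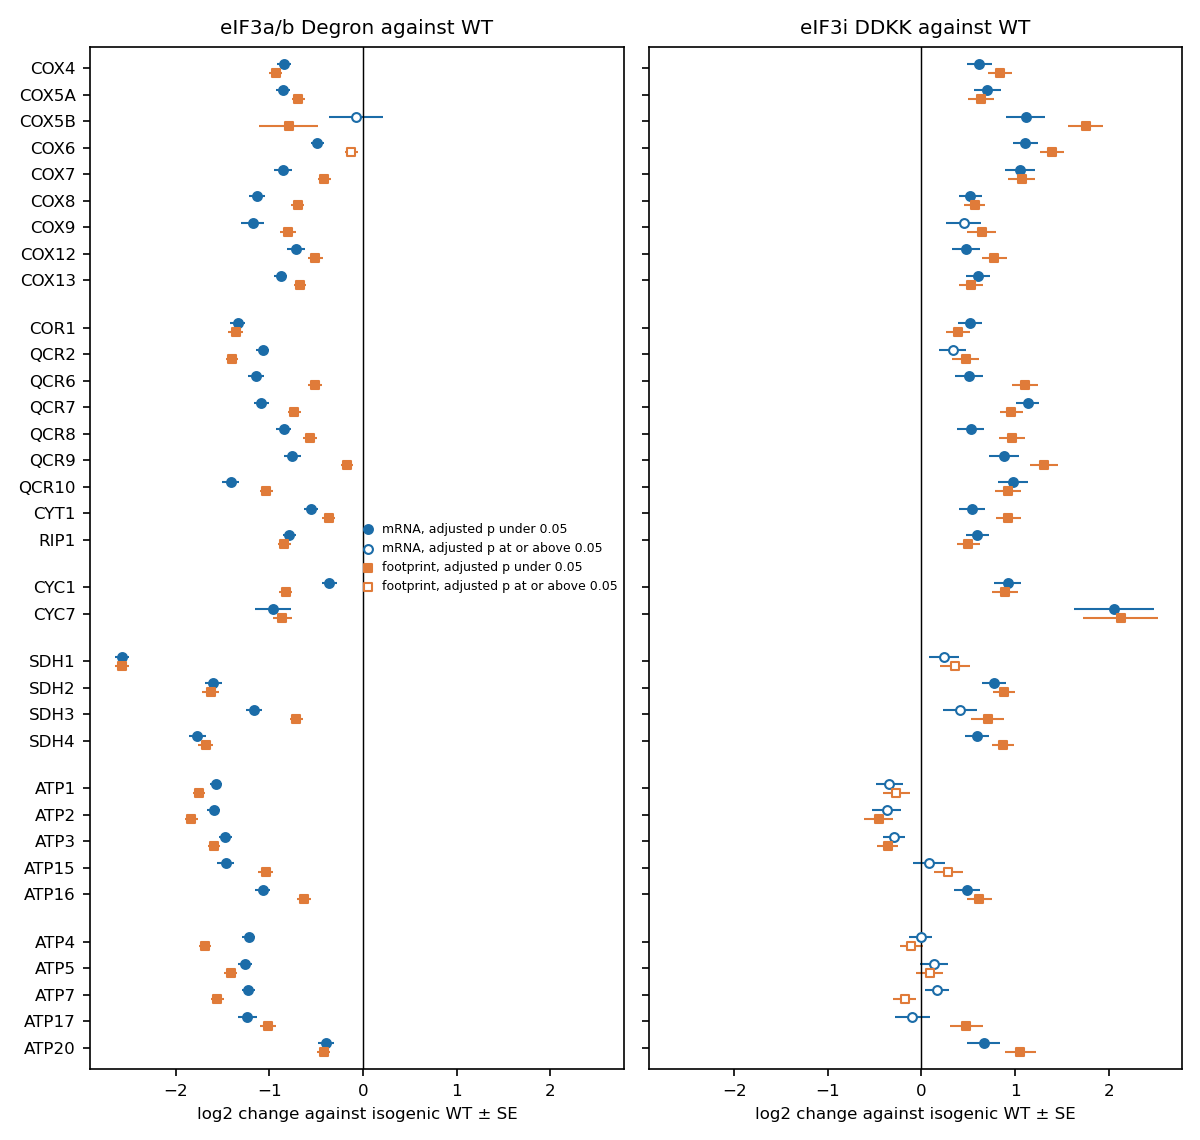
Points give the log2 change (x axis, ± SE) of mRNA (circles) and footprints (squares) of each gene against isogenic WT, for *eIF3a/b Degron* cells (left) and *eIF3i DDKK* cells (right), and filled points have an edgeR adjusted p under 0.05. All points of the left panel lie below 0, down to -2.58 for SDH1 mRNA, and most of the right panel lie above 0, up to 2.12 for CYC7 footprints.

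Footprints fell with the mRNA. In *eIF3a/b Degron* cells 33 of 34 genes had fewer footprints than WT and none had more (none at an unadjusted p under 0.05, none by DESeq2), where 41.3% of genes tested were called lower and 41.8% higher. The median log2 change was -0.83, against 0.01 over all genes. Scaling by library size alone moved the median of all genes to 0.24 for footprints and left 30 genes called lower, and QCR9 footprints then changed by 0.0660 in place of -0.17. SDH1 footprints were 70.0 and 68.0 scaled RPKM in *eIF3a/b Degron* cells, against 427 and 394 in WT, a log2 change of -2.57 ± 0.07 (adjusted p = 1.6e-19), so that the change was the same as in mRNA. ATP2 footprints were 513 and 522, against 1942 and 1749 (-1.83 ± 0.07, adjusted p = 3.16e-17). COX6 was the gene not called. Its footprints were 1916 and 2089, against 2276 and 2087 in WT, with overlapping groups and a log2 change of -0.12 ± 0.07 (adjusted p = 0.101).

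Relative translational efficiency (TErel), the ratio of footprints to mRNA relative to that of the other genes, changed far less and in both directions. Of 34 genes, 12 had higher TErel in *eIF3a/b Degron* cells and 5 had lower TErel, where 26.8% of genes tested were called higher and 33.1% lower. The median log2 change in TErel was 0.13, against -0.04 over all genes. With library size as the scaling, the median of all genes moved to 0.28 and the split to 22 higher and 0 lower. DESeq2 with its own size factors gave 13 higher and 4 lower, so the division into higher and lower depends on the scaling.

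Of the 12 genes with higher TErel, 8 were among the 14 with coding sequences under 400 nt and 4 among the 20 longer ones. In cytochrome bc1, QCR6 (YFR033C, the acidic hinge subunit) changed by 0.63 ± 0.11 in TErel (adjusted p = 3.92e-05). Its mRNA was 201 and 193 scaled RPKM in *eIF3a/b Degron* cells, against 454 and 415 in WT, while its footprints were 1010 and 1070, against 1589 and 1373, so footprints fell less than mRNA. QCR9 (0.58), QCR10 (0.38), QCR7 (0.35) and QCR8 (0.28), all small subunits of the same complex, were also higher. In cytochrome c oxidase COX7 (0.44 ± 0.12, adjusted p = 0.00285), COX8 (0.43), COX9 (0.38) and COX6 (0.36) were higher and none was lower. COX7 mRNA was 431 and 342, against 717 and 685 in WT, and its footprints were 3478 and 3855, against 4942 and 4810. SDH3 (0.45 ± 0.11, adjusted p = 0.000988), ATP16 (0.44 ± 0.11, adjusted p = 0.00134) and ATP15 (0.43) completed the 12.

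The lower TErel values were those of CYC1, ATP4, ATP7, QCR2 and ATP2. CYC1 (YJR048W), the main cytochrome c, had 848 and 832 scaled RPKM of mRNA in *eIF3a/b Degron* cells, against 1152 and 1005 in WT. Its footprints were 3578 and 3807, against 6901 and 6200, and TErel changed by -0.47 ± 0.11 (adjusted p = 0.000609). ATP4 (YPL078C, the b subunit of the stator) changed by -0.47 ± 0.10 (adjusted p = 0.000274), with footprints of 382 and 419, against 1329 and 1246, and mRNA of 231 and 223, against 533 and 526. ATP7, the d subunit of the stator, changed by -0.33 ± 0.10, QCR2, a core subunit of bc1, by -0.32 ± 0.10, and ATP2 by -0.24 ± 0.09 (0.0718 when scaled by library size). SDH1 stood at 0.00 ± 0.10 and SDH2 at -0.03 ± 0.13. ATP17 had the highest value of Fo and stalks (0.22 ± 0.13, adjusted p = 0.161), with mRNA of 273 and 202, against 589.6 and 531 in WT, and footprints of 983 and 1122, against 2206 and 2036. The widest interval was that of COX5B (-0.72 ± 0.43, adjusted p = 0.157). Without WT replicate 2 the number of genes with higher TErel fell to 6, and the number with lower TErel ran between 3 and 5 when any culture was left out.

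**Figure D3:**
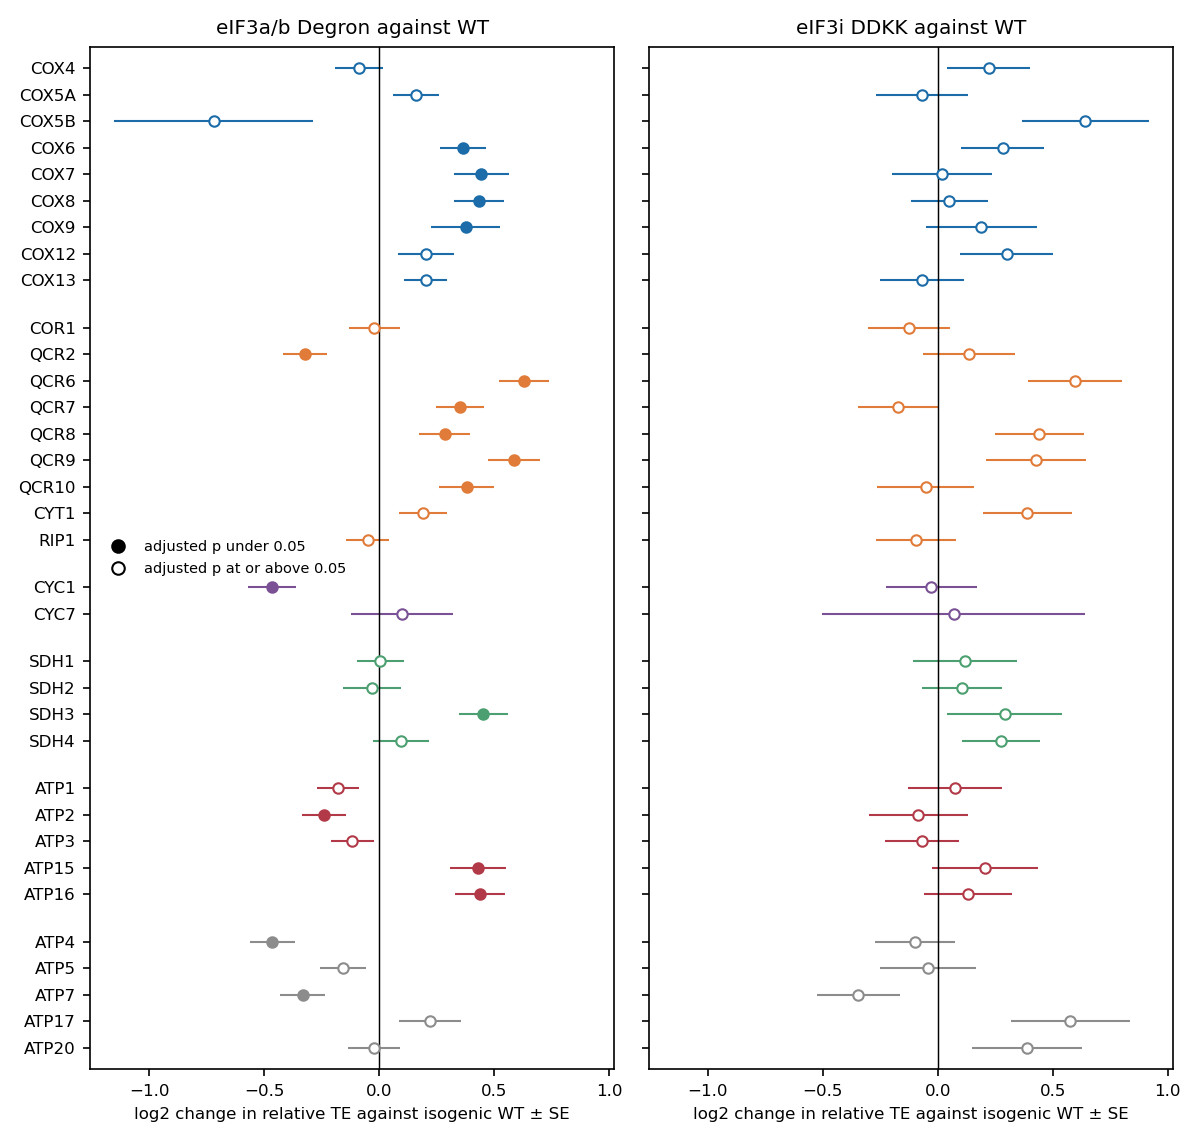
Points give the log2 change in TErel (x axis, ± SE) of each gene against isogenic WT, coloured by complex, with *eIF3a/b Degron* cells left and *eIF3i DDKK* cells right, and filled where the edgeR adjusted p was under 0.05. The left panel holds 12 filled points above 0 and 5 below, and the right panel holds none.

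The coding sequences of these genes are short, and length moved with the change. Among the 34 genes the Spearman correlation of coding length with the TErel change was -0.59 in *eIF3a/b Degron* cells, and over 5264 genes with a known coding length it was -0.26. The median TErel change was 0.32 for the 14 genes under 400 nt and -0.04 for the 20 longer genes, against 0.21 and -0.06 for all genes of these lengths. Footprint changes correlated with length at -0.58 among the 34 genes and -0.11 over all genes, and mRNA changes at -0.39 and 0.06. These values are descriptions across genes, which share libraries and are not replicates, and the part of length in the results was not tested. The correlation with the TErel change in *eIF3i DDKK* cells was -0.29 both among the 34 genes and over all genes. Their mRNA changes correlated with length at -0.42 among the 34 genes and -0.22 over all genes, and footprint changes at -0.53 and -0.31. In *eIF3i DDKK* cells the median mRNA change under 400 nt was 0.63 for the 14 genes and 0.25 for all genes. The median footprint change was 0.91 and 0.45. For longer genes these medians were 0.50 and 0.10 in mRNA, and 0.56 and -0.02 in footprints.

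In *eIF3i DDKK* cells most genes called for mRNA belonged to the electron-carrying complexes. Of 34 genes, 22 had higher mRNA than WT and none had lower mRNA (3 lower at an unadjusted p under 0.05, 1 by DESeq2), where 16.5% of the 5244 genes tested were called higher and 12.0% lower. The median log2 change was 0.52, against 0.11 over all genes. Cytochrome c oxidase had 8 of 9 genes higher (median 0.62), cytochrome bc1 8 of 9 (0.54), cytochrome c 2 of 2 (1.49) and succinate dehydrogenase 2 of 4 (0.50). Of the ATP synthase genes 1 of 5 in F1 (median -0.29) and 1 of 5 in Fo with its stalks (0.13) were higher. The complexes were not tested against each other here either. The calls rest on few cultures. Without WT replicate 1 only 3 genes were called higher and without WT replicate 2 only 4, while the median of the 34 genes stayed at 0.57 and 0.56.

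The footprints of *eIF3i DDKK* cells were higher in 26 of 34 genes and lower in 2, where 26.2% of genes tested were called higher and 26.2% lower, and the median was 0.67, against 0.01 over all genes. All 9 genes of cytochrome c oxidase, all 9 of cytochrome bc1, both cytochrome c genes and 3 of 4 succinate dehydrogenase genes were higher (medians 0.78, 0.93, 1.51 and 0.79). In the F1 head ATP2 and ATP3 were lower and ATP16 was higher (median -0.27), and of Fo with its stalks ATP17 and ATP20 were higher (median 0.09). With library size alone the median of all genes was 0.31, 28 genes were higher and none lower (edgeR). Fewer genes were called higher when either WT culture was left out, while the median of the 34 genes was 0.73 without WT replicate 1 and 0.64 without WT replicate 2.

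CYC7 (YEL039C), the cytochrome c isoform expressed at low oxygen, rose furthest. Its mRNA was 236 and 441 scaled RPKM in *eIF3i DDKK* cells, against 60.5 and 104 in WT, a log2 change of 2.05 ± 0.43 (adjusted p = 0.00766). Its footprints were 819 and 1874, against 277 and 341 (2.12 ± 0.40, adjusted p = 0.00179). Both mutant cultures lay above both WT cultures. In scaled RPKM, however, the mutant cultures lay further from each other than the lower mutant culture lay from the higher WT culture. COX5B (YIL111W) followed, with mRNA of 72.1 and 87.9, against 36.3 and 37.5 (1.11 ± 0.21, adjusted p = 0.00492), and footprints of 199 and 283, against 63.4 and 79.3 (1.76 ± 0.19, adjusted p = 9.15e-05).

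The aerobic partners and the other electron carriers rose less. CYC1 mRNA was 375 and 314 in *eIF3i DDKK* cells, against 184 and 180.4 in WT (0.92 ± 0.15, adjusted p = 0.0022), and COX5A (YNL052W) mRNA was 173 and 161, against 107 and 97.9 (0.70 ± 0.15, adjusted p = 0.00792). QCR7, a bc1 subunit on the matrix side, had the largest mRNA change of its complex (401 and 363, against 180.0 and 169, 1.13 ± 0.13, adjusted p = 0.000336). COX6 changed by 1.11 ± 0.13 (478 and 413, against 203 and 210.0). SDH2 changed by 0.78 ± 0.13 (117 and 129, against 72.7 and 70.7), while SDH1 had 36.4 and 49.6, against 38.5 and 34.1, with overlapping groups and a change of 0.24 ± 0.16 (adjusted p = 0.287). COX6 and QCR7 were called whichever culture was left out.

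ATP synthase showed both directions in *eIF3i DDKK* cells. ATP2 footprints were 459 and 383 scaled RPKM, against 617 and 542 in WT (-0.46 ± 0.15, adjusted p = 0.0285), and ATP3 footprints were 279 and 280.4, against 353 and 364 (-0.36 ± 0.11, adjusted p = 0.0222). The mRNA of ATP1, ATP2 and ATP3 changed by -0.34, -0.37 and -0.29 and was not called (adjusted p = 0.102, 0.0927 and 0.0841). ATP20 mRNA was 217 and 157, against 107 and 131 (0.67 ± 0.18, adjusted p = 0.0197), with footprints of 552 and 508, against 272 and 238 (1.05 ± 0.16). ATP16 mRNA was 249.9 and 217, against 182 and 151 (0.49 ± 0.14, adjusted p = 0.0262). The stator genes ATP4, ATP5 and ATP7 had mRNA changes of -0.01, 0.13 and 0.17, none of them called. The ATP2 and ATP3 footprint calls were lost in some fits without 1 culture, with 1 and 2 of 4 such fits calling them.

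No gene of the 34 was called for TErel in *eIF3i DDKK* cells by edgeR or by DESeq2, with 4 higher and none lower at an unadjusted p under 0.05, where 1.14% of genes tested were called higher and 2.88% lower. The call depended on the fit: with the replicate block 2 genes were higher, with a block by culture 3, and without mutant replicate 1 the number was 5. The median log2 change was 0.11, against -0.08 over all genes. The highest values were those of COX5B (0.64 ± 0.28, adjusted p = 0.223), QCR6 (0.60 ± 0.20, adjusted p = 0.134) and ATP17 (0.58 ± 0.26, adjusted p = 0.24). The lowest was that of ATP7 (-0.35 ± 0.18, adjusted p = 0.318), ahead of QCR7 (-0.17 ± 0.17). For ATP7 the footprints were 593 and 529 scaled RPKM in *eIF3i DDKK* cells, against 628 and 644 in WT, and the mRNA 207 and 203, against 195 and 170.0. ATP17, a subunit of Fo, had mRNA of 242 and 175, against 259 and 187, and footprints of 767 and 775, against 579 and 528. QCR6 had mRNA of 183 and 208, against 123 and 153, and footprints of 753 and 749, against 322 and 378, and in both genes the footprint groups lay apart while those of ATP17 mRNA overlapped. SDH3 (0.29 ± 0.25) and SDH2 (0.11 ± 0.17) were the highest and lowest of succinate dehydrogenase, ATP15 (0.21 ± 0.23) and ATP2 (-0.09 ± 0.21) of F1, and CYC7 (0.07 ± 0.57) and CYC1 (-0.03 ± 0.20) differed little beside their errors. SDH3 mRNA was 199.5 and 131, against 131 and 117, with footprints of 457 and 499, against 296 and 290.2. ATP15 mRNA was 386 and 302, against 371 and 281, with footprints of 1373 and 1376, against 1194 and 1064. COX13 had the lowest value of cytochrome c oxidase (-0.07 ± 0.18), with mRNA of 395 and 409.7, against 247 and 283, and footprints of 1122 and 1261, against 822 and 827. The mRNA groups of ATP15 overlapped and its footprint groups did not. The spread between cultures was wide in this background, with a biological coefficient of variation of 0.121, against 0.0483 in the Degron background.

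The mRNA and footprint changes of the same genes thus differed between the mutants, and the difference was tested in 1 fit of the 16 libraries after the opposite directions had been seen. For mRNA, the *eIF3a/b Degron* change was lower than the *eIF3i DDKK* change in 34 of 34 genes (median difference -1.56 on the log2 scale), where 21.4% of the 5228 genes tested were called lower and 17.2% higher. For footprints it was lower in 34 of 34 genes (median -1.51), where 27.4% were called lower and 26.5% higher. SDH1 had a difference of -2.87 ± 0.19 in mRNA (adjusted p = 1.01e-07) and CYC7 one of -3.07 ± 0.61 (adjusted p = 0.00145). For TErel none of the 34 genes was called in either direction by edgeR or by DESeq2 (1 lower and 2 higher at an unadjusted p under 0.05), where 1.78% were called lower and 1.89% higher. Strain, medium, temperature and time differ between the mutants as well and cannot be told apart from the eIF3 allele.

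The WT strains, which were also read after the shift, differed in the levels of these genes. Between Degron WT, in raffinose and galactose, and DDKK WT, in SC medium, mRNA was higher in Degron WT for 32 of 34 genes and lower for 1, where 18.4% of genes tested were called higher and 18.9% lower. The median log2 difference was 1.49, against 0.03 over all genes. Footprints were higher for 32 genes and lower for 1, where 26.7% were called higher and 20.7% lower (median 1.88, against 0.04). Scaling by library size alone moved the mRNA median of all genes to 0.48 with the same counts of 32 and 1. Strain, medium, temperature and time again cannot be told apart. Levels compared between backgrounds were scaled over all 16 libraries.

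CYC1 had the largest difference in mRNA, with 1093 and 958 scaled RPKM in Degron WT, against 199 and 198 in DDKK WT (2.38 ± 0.12, adjusted p = 9.99e-10), and a footprint difference of 3.17. SDH2 (421 and 381, against 78.6 and 77.5, 2.37 ± 0.13), SDH1 (202 and 191, against 41.6 and 37.4, 2.32 ± 0.14) and COX5A (565 and 544, against 116 and 107, 2.32 ± 0.12) came next. The smallest positive difference was that of QCR9 (133 and 131, against 81.8 and 80.2, 0.71 ± 0.12). COX5B was the gene that was lower in Degron WT, with 6.39 and 11.2, against 39.3 and 41.1 (-2.15 ± 0.25, adjusted p = 7.08e-06). CYC7 had 41.2 and 45.4, against 65.4 and 114, a difference of -1.0 ± 0.40 that was not called (adjusted p = 0.0616).

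**Figure D4:**
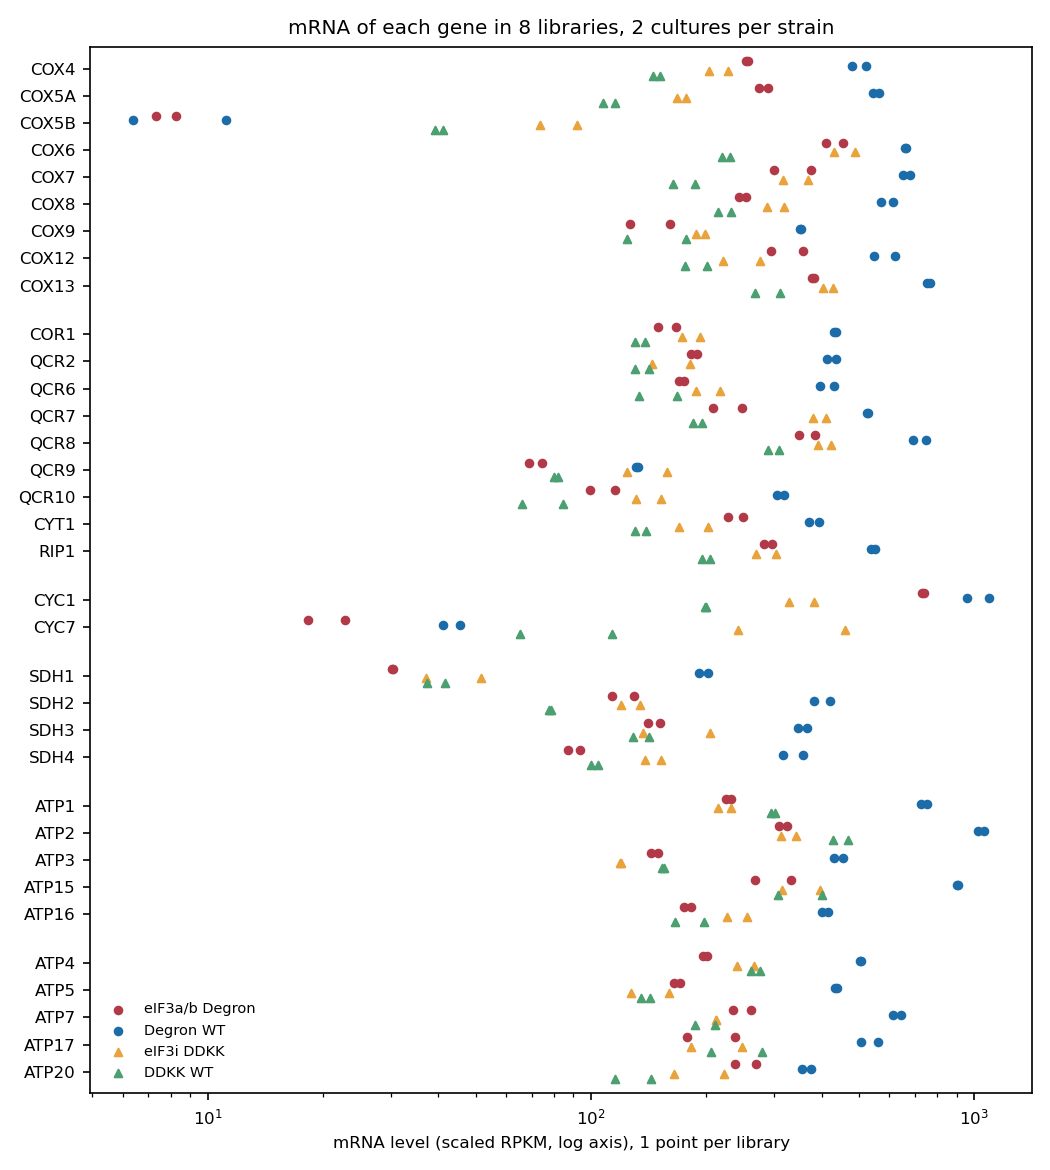
Each point is the mRNA level (scaled RPKM over 16 libraries, log x axis) of a gene in 1 library, with 2 cultures of each of 4 strains. Degron WT lies to the right for most genes (CYC1 1093 and 958), while COX5B lies furthest left in both Degron strains (7.34 and 8.28 in *eIF3a/b Degron* cells, 6.39 and 11.2 in Degron WT).

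For some genes the mRNA levels of the mutants lay near each other. SDH2 had 114 and 129.8 scaled RPKM in *eIF3a/b Degron* cells and 119.5 and 135 in *eIF3i DDKK* cells, while ATP2 had 309.6 and 324 in *eIF3a/b Degron* cells and 314 and 343 in *eIF3i DDKK* cells. CYC1 stayed apart, at 738 and 729.7 in *eIF3a/b Degron* cells and 383 and 328 in *eIF3i DDKK* cells. These levels are descriptions and were not tested. TErel was higher in Degron WT than in DDKK WT for 6 genes (COX4, COX12, CYC1, ATP3, ATP4 and ATP20) and lower for none (none at an unadjusted p under 0.05, none by DESeq2), where 2.07% of genes tested were called higher and 1.76% lower. The median was 0.38, against 0.06 over all genes. No gene was called with library size as the scaling (median of all genes -0.35), and 0 genes were called without Degron WT replicate 1, Degron WT replicate 2 or DDKK WT replicate 2, 1 without DDKK WT replicate 1, 2 without either *eIF3a/b Degron* culture and 18 without either *eIF3i DDKK* culture.

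Both isoform pairs had a larger share of the low-oxygen form in the DDKK background. COX5A and COX5B encode alternative forms of subunit V of cytochrome c oxidase, and COX5B took 2.60% and 2.78% of their summed mRNA per length in *eIF3a/b Degron* cells, against 1.12% and 2.01% in Degron WT. Its share was 29.4% and 35.3% in *eIF3i DDKK* cells, against 25.4% and 27.7% in DDKK WT. Of their footprints COX5B took 0.395% and 0.450% in *eIF3a/b Degron* cells, against 0.397% and 0.521%, and 23% and 34.5% in *eIF3i DDKK* cells, against 13.3% and 18%. The counted region of COX5B includes its intron, as do those of QCR9 and QCR10, so levels per length of these 3 genes are understated.

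CYC7 took 2.42% and 3.03% of the mRNA of cytochrome c in *eIF3a/b Degron* cells, against 3.63% and 4.53% in Degron WT. The share was 38.7% and 58.4% in *eIF3i DDKK* cells, against 24.7% and 36.5% in DDKK WT. Of the footprints it took 5.33% and 5.96% in *eIF3a/b Degron* cells, against 5.96% and 5.58% in Degron WT, which overlapped. Its share of the footprints was 38.0% and 62.8% in *eIF3i DDKK* cells, against 28.6% and 35.1%. The cultures of mutant and WT did not overlap in either background for mRNA, and 2 against 2 cultures cannot reach a p under 0.05 in an exact test, so no test was made. Of the windows of 28 nt in the CYC1 and CYC7 coding sequences, 8 were identical between both genes, and no other gene of the 34 shared such a window with another place in the genome.

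**Figure D5:**
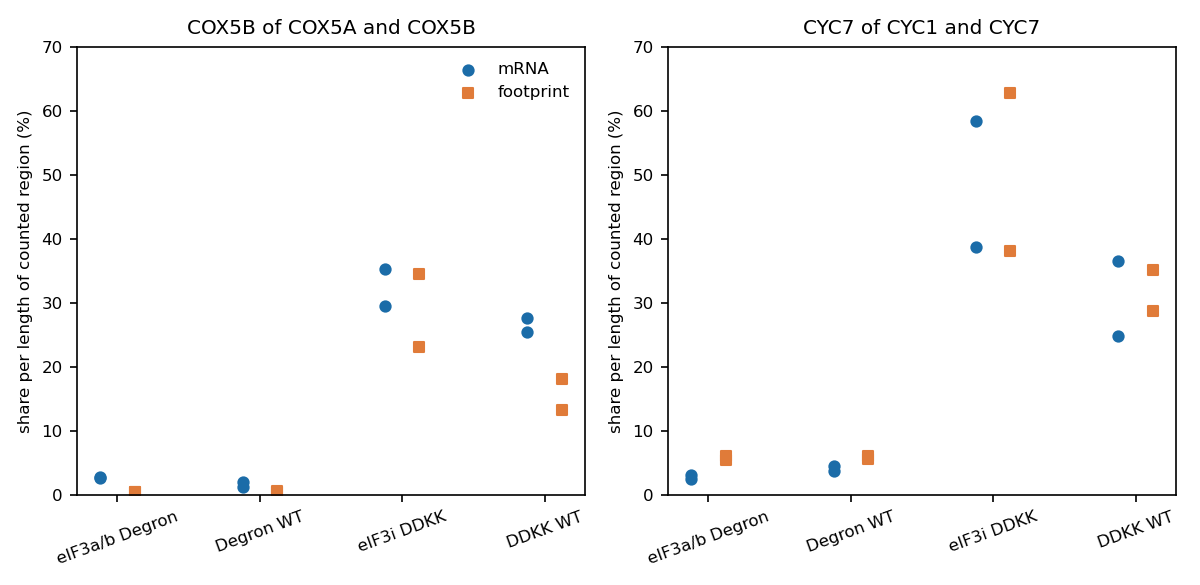
Points give the share (%) of COX5B in COX5A and COX5B together (left) and of CYC7 in CYC1 and CYC7 together (right), per length of counted region, with 1 circle per mRNA library and 1 square per footprint library. The DDKK strains lie well above the Degron strains in both panels, and CYC7 reaches 58.4% of mRNA and 62.8% of footprints in 1 *eIF3i DDKK* culture.

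The mRNAs of these complexes ranked high in TErel within each strain, which compares genes within a culture and gives no absolute efficiency. The median TErel of the 34 genes, on the log2 scale and relative to the median gene, was 2.01 and 2.18 in *eIF3a/b Degron* cells, against 1.91 and 1.83 in their WT, and 1.58 and 1.79 in *eIF3i DDKK* cells, against 1.38 and 1.33 in theirs. This placed the median member between the 89.3 and the 95.0 percentile of genes tested in the 8 cultures. All 34 genes were above the median gene in both WT strains and in *eIF3i DDKK* cells. The count was 33 for *eIF3a/b Degron* cells, where COX5B lay below it. In Degron WT the highest were CYC7 (3.35 and 2.97), COX7 (2.80 and 2.84) and QCR10 (2.67 and 2.62), and the lowest were COX5B (0.76 and 0.19) and ATP2 (0.87 and 0.69).

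Further subunits, inhibitors and electron-feeding dehydrogenases also had mostly lower mRNA in *eIF3a/b Degron* cells. Of 7 further subunits and inhibitors of ATP synthase or cytochrome c oxidase, 6 had lower mRNA in *eIF3a/b Degron* cells (median -1.53), where 30.8% of all genes tested were lower and 44.3% higher, among them the inhibitors INH1 (-1.88), STF1 (-1.80) and STF2 (-2.67). In *eIF3i DDKK* cells COX26 was the 1 of these 7 with higher mRNA, where 16.5% of all genes tested were higher and 12.0% lower. Footprints there were higher for 4 of the 7 and lower for 0 (median 0.66), where 26.2% of all genes tested were higher and 26.2% lower. COX26 rose by 3.21 on the log2 scale with a footprint change of 4.13, on 130 and 181 mRNA reads, against 28 and 31 in WT. All 6 dehydrogenases that feed electrons to the chain had lower mRNA in *eIF3a/b Degron* cells (median -1.34, against the same 30.8% of all genes), with GUT2, the mitochondrial glycerol-3-phosphate dehydrogenase, at -2.14 and NDI1, the internal NADH dehydrogenase, at -1.32. Their mRNA changes in *eIF3i DDKK* cells ran between 0.01 and 0.75, and none was called (edgeR, 1 at an unadjusted p under 0.05), against the same 16.5% and 12.0% of all genes.

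Assembly factors, which insert cofactors and put subunits together, were counted in the same way. Of 29 assembly factors, 22 had lower and 1 higher mRNA in *eIF3a/b Degron* cells (median -0.81), and 15 had lower and 2 higher TErel (median -0.46). Over all genes tested 30.8% were lower and 44.3% higher in mRNA, and 33.1% lower and 26.8% higher in TErel. The TErel changes of the 29 assembly factors in *eIF3a/b Degron* cells ran between -1.69 (COX17) and 0.50, with SCO1 at -1.55 and COX11 at -1.40. In *eIF3i DDKK* cells 4 of 29 assembly factors had lower mRNA (12.0% of all genes), and 11 had fewer and 4 more footprints (26.2% of all genes each). COX17 was the 1 of 29 called for TErel (-1.21), where 2.88% of all genes were lower and 1.14% higher. Their median mRNA change in *eIF3i DDKK* cells was -0.06. Assembly factors and subunits were not tested against each other.

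Of 6 transcription factors of these genes, 3 had lower and 2 higher mRNA in *eIF3a/b Degron* cells (30.8% and 44.3% of all genes). HAP4 mRNA changed by -0.58 in *eIF3a/b Degron* cells against WT, its footprints by -1.66 and its TErel by -1.08, all called. HAP4 mRNA changed by 0.22 in *eIF3i DDKK* cells, which was not called, and its footprints by -0.53 and TErel by -0.75, both called. HAP4 mRNA was higher in Degron WT than in DDKK WT by 2.28. HAP5 mRNA changed by -1.0 and its footprints by -1.69 in *eIF3a/b Degron* cells, HAP3 mRNA by -0.43 and HAP2 by -0.20, the last not called. HAP1, an activator of cytochrome genes that responds to heme, changed by 0.70 in *eIF3a/b Degron* cells and -0.17 in *eIF3i DDKK* cells, and ROX1, a repressor of genes used at low oxygen, by 1.28 and 1.37. PUF3 mRNA changed by -0.15 and its TErel by -1.53 in *eIF3a/b Degron* cells. Of 3 paralogs of succinate dehydrogenase subunits, SHH3 had too few mRNA reads to be tested. In *eIF3a/b Degron* cells YJL045W mRNA changed by -4.12 (14 and 4 reads, against 281 and 252 in WT) and SHH4 mRNA by 0.30, which was not called. Footprints changed by -2.31 (YJL045W) and 1.13 (SHH4), both called. TErel was called higher for both, where 26.8% of all genes tested were higher.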

How the data were processed

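Ribosome footprints and randomly fragmented total mRNA from the same lysates were sequenced by the authors, who deposited whole-number read counts per gene in 1 table per background. Cycloheximide was added. The submitters' notes name CASAVA 1.8, Bowtie2 2.2.6.0, TopHat2 2.1.0, DESeq2 and sacCer3, without roles, and the strand setting of the counting is not given in the sources used here. For 5196 of 5201 genes with 1 coding part, the counted region is 60 nt shorter than the coding sequence. A deposited table of the authors' own log2 changes, TE values and p-values was not used, and 0 columns of other samples were left out.

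Genes with at least 128 mRNA reads summed over the libraries of a background were tested (5306 in the Degron and 5244 in the DDKK background). Counts were fitted with edgeR 4.0.16 (TMM scaling, quasi-likelihood test, R 4.3.3), 1 fit per background with strain, assay and their interaction, which is TErel. DESeq2 1.42.0 was an alternative, beside other scalings, filters, a replicate block and leaving out each culture. A pseudocount of 0.5 was used only for TErel levels. In simulated data with 1 log2 unit of change, 191 of 200 changed genes were recovered among 203 calls in the Degron background and 142 of 200 among 154 in the DDKK background. All other genes were simulated without change. The TErel changes of the 34 genes were smaller (-0.72 to 0.63 in *eIF3a/b Degron* cells, -0.35 to 0.64 in *eIF3i DDKK* cells). The recovery of changes of that size was not simulated. All genes of the complexes are named, with full values for those with the largest and smallest TErel change and the largest mRNA change of each complex, and for both isoform pairs. Members and lists were chosen with earlier results of these data known. The search for ACCAATNA and the test of the difference between mutants were added after seeing the data. Replicates are separate cultures.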

Additional observations from a re-analysis of the deposited data

Results flagged for a closer look

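Changes against isogenic WT differed between the mutants, by the test of the difference itself in edgeR (an interaction term in 1 fit of 16 libraries, chosen after opposite directions had been seen). For mRNA all 34 genes differed, and for footprints all 34 genes differed. The largest differences, as the *eIF3a/b Degron* change minus the *eIF3i DDKK* change on the log2 scale, were -3.07 (CYC7) and -2.87 (SDH1) in mRNA. In footprints they were -3.01 (CYC7), -2.95 (SDH1), -2.57 (COX5B), -2.57 (SDH4) and -2.53 (SDH2). Medium, strain, temperature and time differ between the backgrounds too, and cannot be told apart from the eIF3 allele.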

How the results depend on the processing

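With 2 cultures per strain, and deeper WT than mutant footprint libraries, small TErel changes are measured least firmly. In *eIF3a/b Degron* cells 32 to 33 genes had lower mRNA and 30 to 34 fewer footprints under the alternatives run, against 33 each. Values that moved most came from scaling by library size alone. It reversed QCR9 footprints (0.0660) and, in TErel, COR1 (0.290), RIP1 (0.262), ATP2 (0.0718) and ATP20 (0.290) in *eIF3a/b Degron* cells, by the construction of the scaling. The number of genes with lower TErel there, 5, became 0 by library size, 2 with TMM within each assay, 0 with all 16 libraries in 1 fit and 3 to 5 without 1 culture. The number with higher TErel, 12, became 22 by library size and 6 to 12 without 1 culture. In *eIF3i DDKK* cells lower mRNA was called for 1 gene by DESeq2, 1 with TMM within each assay and 3 with all 16 libraries. Higher mRNA was called for 20 with TMM within each assay and 23 by library size, and for far fewer when either WT culture was left out. Lower footprints were called for 0 by library size and 0 to 3 without 1 culture, and higher footprints for 16 to 27. Higher TErel was called for 4 with all 16 libraries and 0 to 5 without 1 culture, with 5 without *eIF3i DDKK* replicate 1. Between the WT strains lower mRNA was called for 1 to 2 genes, and higher TErel for 0 by library size and 0 to 18 without 1 culture. The TErel difference between the mutants was called higher for 0 to 2. The cause of these moves was not tested.

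The labels do not say that a replicate number marks a shared day. Same-numbered mutant and WT cultures deviated together with correlations of 0.012 (mRNA) and -0.024 (footprints) in the Degron background. In the DDKK background these were 0.215 and 0.300, and 2 pairs of mutant and WT are too few to count as pairing. Footprints and mRNA, by contrast, shared a lysate, and the main fit did not model this pairing. Their deviations correlated at 0.030 in *eIF3a/b Degron* cells and 0.092 in their WT. The correlation was 0.435 in *eIF3i DDKK* cells and 0.215 in their WT. With the replicate block, *eIF3a/b Degron* cells had 5 genes with lower and 12 with higher TErel, and *eIF3i DDKK* cells had 2 with higher TErel, 3 with lower and 23 with higher mRNA, and 3 with lower and 28 with higher footprints. With the replicate block by culture, 6 genes had lower and 15 higher TErel in *eIF3a/b Degron* cells, and 3 had higher TErel in *eIF3i DDKK* cells. Over all genes tested, that block called 902 for TErel in *eIF3i DDKK* cells, against 211 in the main fit.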
